A study of Mus musculus with 31 samples.

Results

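Among 31 BXD strains whose liver RNA was measured, 10 had a value below -1 at a single array probe, and these 10 strains, chosen by that value, were set against the other 21. BXD strains are recombinant inbred mice made from C57BL/6J and DBA/2J, and each carries a fixed mosaic of both parental genomes. The low strains were BxD/TyJ strains 5, 8, 15, 20, 22, 27, 33, 36, 38 and 39. Each strain was represented by whole liver of male mice aged 8 weeks, with RNA of 3 mice pooled, on 1 two-colour array. The same C57BL/6J liver RNA, a pool from 9 males of that age, was the reference on every array, so the control strain carries no spread of its own. The deposited log ratios were taken as log2, strain over reference, which is likely but not stated. If the direction were the other way round, every sign below would turn, and the folds given assume base 2.

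The sets were formed from the arrays themselves and from no label. A difference between them is therefore an association between probes across strains, and its p-value measures the spread between strains. In bulk liver, fewer cells of a type and less RNA per cell cannot be told apart.

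Liver couples the burning of fatty acids in mitochondria, peroxisomes and the endoplasmic reticulum with their synthesis in the cytosol, and both arms follow feeding, hormones and time of day. Metallothioneins are small cysteine-rich proteins that bind zinc, copper and cadmium, and in liver they respond to metals, glucocorticoids and stress. In recombinant inbred strains, the level of a transcript can vary with the parental allele at its own gene and at other genes.

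The probe that sorted the strains, number 21013, has no gene in the annotation used. Its lowest value was -1.77 in strain 8, the median of the 10 low strains was -1.33, and the strain just inside the boundary was strain 38 at -1.15. Strain 6 lay just outside at -0.65, and the other 21 strains reached 0.45 in strain 40 with a median of -0.20. These values chose the sets and were not tested. The probe was left out of the comparison of the sets and of every count.

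**Figure D1:**
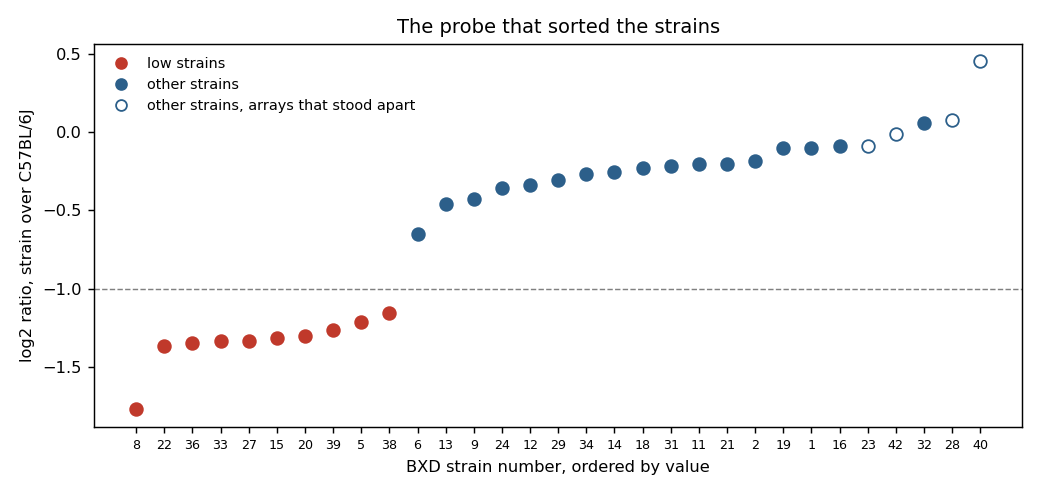
Values of the sorting probe (log2 ratio, vertical axis) in the 31 strains, ordered by value; red points are the 10 low strains, blue points the other 21, open points strains 23, 28, 40 and 42, and the dashed line is the boundary at -1. The low strains end at -1.15 and the other strains begin at -0.65.

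At 496 of 21764 probes (2.28%) the low strains differed from the others at an adjusted p under 0.05 (limma, Benjamini-Hochberg), and such probes are named called from here on. They comprised 321 probes higher in the low strains (1.47%) and 175 lower (0.804%). Most of the differences were small: the median size was 0.38 on the log2 scale, 117 were at least 0.5 and 15 at least 1. The annotation gave a gene for 401 of the called probes. The arrays of strains 23, 28, 40 and 42, all in the other set, correlated poorly with the rest, their median r with the remaining arrays being 0.06 to 0.37 against 0.57 to 0.79 for the low strains and 0.73 to 0.79 for the other 17 strains. Without these 4 arrays, 3390 probes were called (15.6%), 1715 of them higher (7.88%) and 1675 lower (7.7%). All 496 calls were made again with their sign, and they made up 14.6% of the larger number.

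Probes whose number is a multiple of 8 are marked as every 8th probes. Of 2532 such probes, 74 were called (2.92%), against 422 of 19232 other probes (2.19%). Without the 4 arrays the shares were 21.8% and 14.8%, and 406 of the every 8th probes called were higher and 147 lower. The median difference of every 8th probes was -0.027 with all arrays, against 0.002 for other probes. Without the 4 arrays it was 0.058, against -0.012. Subtracting each array's median of the probes with the same remainder gave 663 calls with all arrays and 3316 without the 4. The cause of the shift was not tested.

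Gene names stand for single probes. Among 876 genes with exactly 2 probes, 35 had a called probe, and in 18 of 36 pairs of a called probe with the gene's other probe both differences had the same sign. In 1 gene both probes were called, in opposite directions.

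A single tested probe (0.00459% of those tested) had no overlap between the sets. It is probe 22477, which also lacks a gene in the annotation, and it is named after its values were seen. It ranged from -2.88 in strain 8 to -1.49 in strain 39 with a median of -2.05 in the low strains, and from -1.14 in strain 40 to 0.48 in strain 23 with a median of -0.19 in the others. The difference was -1.88 ± 0.13 (SE, 10 against 21 strains, adjusted p 2.34e-11 in limma). With the 4 arrays left out, 8 probes (0.0368%) had no overlap.

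The metallothioneins Mt1 and Mt3 were higher in the low strains. Mt1 encodes one of the main liver metallothioneins. In the low strains it ranged from 1.84 in strain 36 to 3.65, with a median of 3.65, and 6 of the 10 strains stood at 3.65, the highest value that any array holds. In the other strains it ranged from 0.09 in strain 23 to 3.09 in strain 1 with a median of 1.30, and 6 of the 21 reached the lowest low strain. The low strains were higher by 1.83 ± 0.29, or 3.55-fold (adjusted p 0.000392). The 6 values at the ceiling are the end of the distribution that all arrays share, so the size of the ratio there is uncertain. When values were clipped to the 1st to 99th percentile of each array the call was lost (adjusted p 0.38).

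Mt3, a metallothionein best known from brain, differed as well. Its values in the low strains were 0.29 in strain 36 at the lowest, 1.29 at the median and 2.34 in strains 15 and 20 at the highest. The other strains ranged from -0.36 to 1.20, with a median of 0.17, and the highest was strain 42, whose array stood apart. The low strains were higher by 1.14 ± 0.19 (adjusted p 0.0011), and 8 of the 21 other strains reached the lowest low strain. Strain 36 was the lowest of the low strains at both genes, and whether the Mt3 probe also measures Mt1 was not tested. Mt4, the squamous epithelial member, had a median of -0.26 in the low strains and -0.36 in the others, and its difference of -0.13 ± 0.20 was not called (adjusted p 0.79).

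No other probe of the 16 for metallothioneins and zinc handling was called, the zinc transporters and the metal-responsive factor Mtf1 included. The median difference of these probes was -0.05, against -0.0003 over all probes. The 2 calls are 12.5% of the list, against 1.47% of all probes called higher. Without the 4 arrays that stood apart, 2 were again called, both higher (12.5% against 7.88% of all probes), and the median was -0.07.

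The metal response element is the sequence to which Mtf1 binds, and its core was searched in the RefSeq promoters (GRCm38.p6) because Mt4, Mt3 and Mt1 lie in 1 cluster on chromosome 8 and differed in their values. Mt2, which lies between Mt3 and Mt1, was not analysed here. The core was spelled TGCGCNC or TGCACNC, on both strands, in the 250 bases before each gene's start site, and 21.4% of 32851 promoters hold at least 1. Within these bases the tabulated promoters of Mt1 and Mt4 hold 1 each and that of Mt3 none. The windows of 30 bases around these cores are given 5′ to 3′ with the core in capitals. The first is chr8:94179055-94179084 on the plus strand, with the core beginning 23 bases before the start site, in a stretch where RefSeq also lists an earlier start of Mt1. The second is chr8:94137102-94137131 on the plus strand, with the core on the opposite strand, 91 bases before the start site.
Mt1: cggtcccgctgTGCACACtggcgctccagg
Mt4: ctcactgggccGTGTGCAgggcgtctggcc
A core thus stood before the called gene Mt1 and before Mt4, which was not called, and such a match describes letters only. Only the 250 bases before each tabulated start were searched. Cores farther before or after that start are not counted, so these counts are not the genes' full number.

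Both Cyp4a genes among those named, which encode microsomal fatty acid hydroxylases, were higher in the low strains. Cyp4a10, a fatty acid omega-hydroxylase and a target of the lipid-sensing receptor PPAR-alpha, ranged from 0.21 in strain 8 to 1.84 in strain 20 in the low strains, with a median of 1.53. The other strains ranged from -1.69 in strain 31 to 1.15 in strain 42 with a median of -0.20. Strain 8 lay within the range of the others, and of the remaining low strains only strain 38, at 1.11, was below the highest of them. The difference was 1.60 ± 0.27, or 3.04-fold (adjusted p 0.0011). Its neighbour Cyp4a14, of the same family, ranged from -0.13 in strain 36 to 2.62 in strain 39 (median 1.14) in the low strains and from -2.08 to 1.16 (median -0.13) in the others. The difference was 1.33 ± 0.28, or 2.51-fold (adjusted p 0.0085), with more overlap than at Cyp4a10. The coding sequences of the Cyp4a genes resemble one another, and whether one probe also measures another member was not tested.

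Acadm, the medium-chain acyl-CoA dehydrogenase of mitochondrial beta-oxidation, was higher by 0.45 ± 0.10 (adjusted p 0.0083), with medians of 0.78 and 0.31. These 3 were the calls among 30 probes for PPAR-alpha targets and fatty acid oxidation, all higher (10% of the list against 1.47% of all probes), and the median difference of the list was 0.09. When the 4 arrays that stood apart were left out, 5 were higher (16.7% against 7.88% of all probes) and 1, the fatty acid carrier Fabp1, was lower.

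Genes of fatty acid synthesis went both ways. Scd1, the stearoyl-CoA desaturase that makes monounsaturated fatty acids, was the lowest named gene in the low strains. They ranged from -3.84 in strain 20, the lowest value any array holds, to -1.62 in strain 27 with a median of -2.65. The other strains ranged from -2.94 in strain 42 to -0.18 in strain 24 with a median of -1.18, so the sets overlapped. Both sets lay below the C57BL/6J reference. The low strains were lower by 2.74-fold, a difference of -1.46 ± 0.25 (adjusted p 0.0013). Without the 4 arrays it was -1.70.

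Fasn, the synthase that builds palmitate, was higher instead. Its low strains ranged from -0.01 in strain 8 to 1.33 in strain 20 with a median of 0.62, and the others from -0.67 to 0.63 with a median of -0.37. The difference was 0.80 ± 0.16 (adjusted p 0.0047). Acly, which supplies cytosolic acetyl-CoA, was lower by 0.49 ± 0.12 (adjusted p 0.02; lost without strain 33, adjusted p 0.0539). At Acaca, the acetyl-CoA carboxylase, 1 probe was lower by 0.55 ± 0.15 (adjusted p 0.0446), while the gene's other probes differed by -0.11 and -0.09 and were not called. The Acaca call was lost with clipped values, without strain 38 and in 17 of the 31 fits that left out 1 strain.

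The diacylglycerol acyltransferase Dgat2, at an every 8th probe, was higher by 0.73 ± 0.18. In all, 2 of 31 probes for fatty acid and triglyceride synthesis were higher (6.45% against 1.47% of all probes). A further 3 were lower (9.68% against 0.804%), and the list's median difference was 0.01. Among 21 probes for cholesterol synthesis and uptake none was called by limma. At 1 the unadjusted p was under 0.05, against 3572 of all 21764 probes. The exact rank-sum test called 1, against 846 of all probes. Without the arrays of strains 23, 28, 40 and 42, 2 of the list were lower, Insig2 and Cyp51 (9.52%, against 7.7% of all probes).

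**Figure D2:**
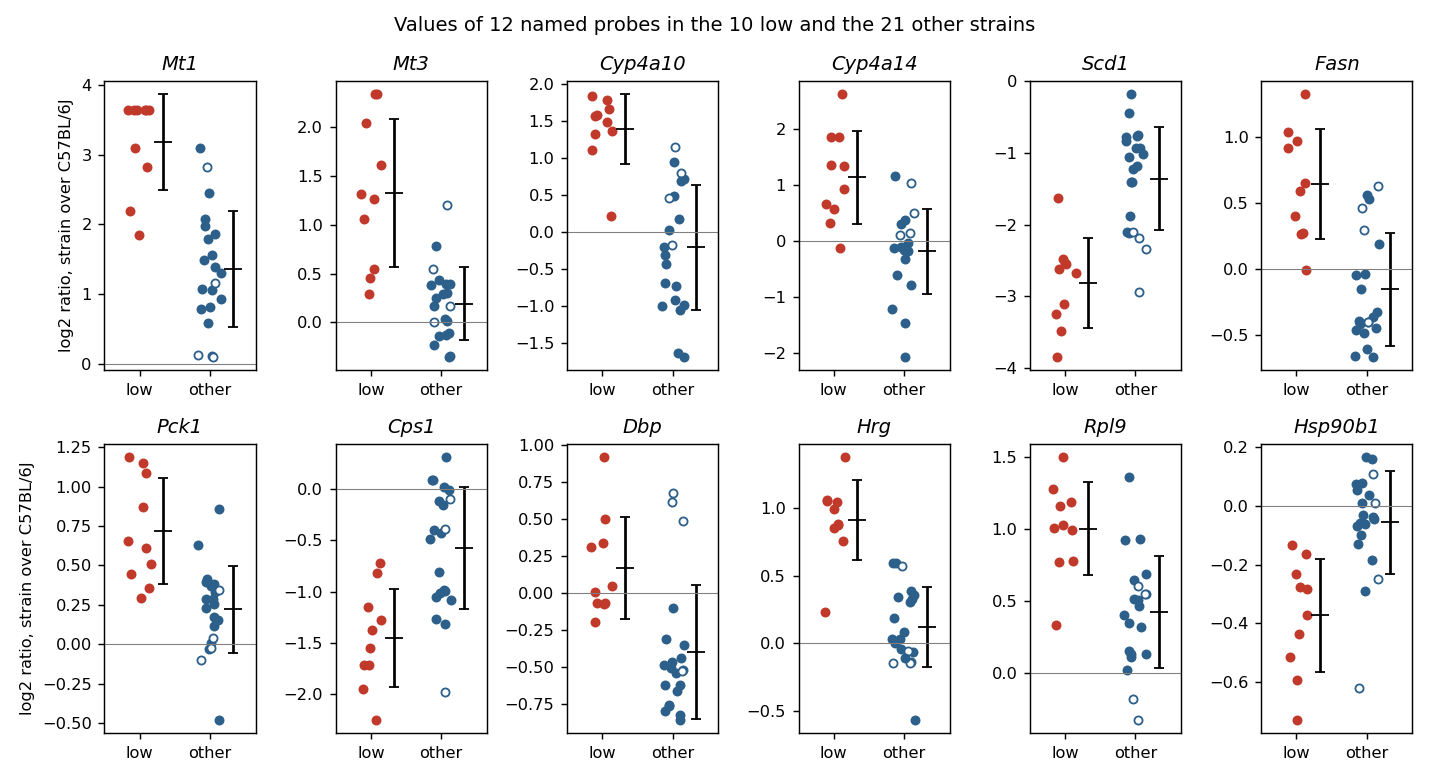
Log2 ratios (vertical axes, 1 scale per panel) of 12 named probes in the 10 low strains (red) and the 21 other strains (blue), with the mean and SD of each set beside the points; open points are strains 23, 28, 40 and 42. Mt1 shows 6 low strains at the ceiling of 3.65, and at all 12 probes the sets overlap.

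Genes of glucose and amino acid metabolism included calls in both directions. Pck1, the cytosolic enzyme that commits carbon to gluconeogenesis, ranged from 0.29 in strain 8 to 1.19 in strain 33 (median 0.63) in the low strains and from -0.48 to 0.86 (median 0.26) in the others. It was higher by 0.50 ± 0.11 (adjusted p 0.0129). G6pc, which releases free glucose, had medians of -0.92 and -0.38 and was not called (-0.53 ± 0.20, adjusted p 0.16), but was lower without the 4 arrays (-0.63, adjusted p 0.0235). Pck1 was the one call among 21 probes for gluconeogenesis and glycolysis control (4.76% against 1.47% of all probes called higher). In the fit without the 4 arrays, 3 of the list were higher (14.3% against 7.88%) and 1 lower (4.76% against 7.7%). The list's median difference was 0.06 with all arrays and 0.11 in that fit.

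Cps1, the first enzyme of the urea cycle, was lower in the low strains. They ranged from -2.25 in strain 36 to -0.72 in strain 20 with a median of -1.46, and the others from -1.97 in strain 42 to 0.31 in strain 12 with a median of -0.43. The difference was -0.88 ± 0.20 (adjusted p 0.0179), and all 10 low strains lay below the median of the others. Tdo2, which opens the breakdown of tryptophan, was lower by 0.44 ± 0.11 (adjusted p 0.0285). Shmt1, the cytosolic serine hydroxymethyltransferase of one-carbon metabolism, was higher by 0.39 ± 0.08 (adjusted p 0.0047). They were the calls among 33 probes for the urea cycle and amino acid catabolism. The 1 higher is 3.03% of the list, against 1.47% of all probes, and the 2 lower are 6.06%, against 0.804%. Without the 4 arrays that stood apart, 4 of the list were higher (12.1% against 7.88%) and 3 lower (9.09% against 7.7%).

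Of 23 probes for glucocorticoid-induced genes, Mt1, Pck1 and the transcription factor Cebpb were higher and Tdo2 lower. Cebpb, which also acts in the acute phase response, ranged from 0.81 to 1.70 (median 1.13) in the low strains and from -0.01 to 1.10 (median 0.62) in the others, a difference of 0.55 ± 0.11 (adjusted p 0.0043). The shares called were 13% higher and 4.35% lower, against 1.47% and 0.804% of all probes, and the list's median difference was 0.04. In the fit that left out the 4 arrays that stood apart, 3 were higher (13% against 7.88% of all probes) and 4 lower (17.4% against 7.7%).

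Dbp, a transcription factor that follows the daily clock in liver, was the one call among 20 probes for circadian clock genes. That is 5% of the list, against 1.47% of all probes called higher. Without the 4 arrays that stood apart Dbp was again the one call, 5% against 7.88% of all probes called higher. At Dbp the low strains ranged from -0.20 in strain 27 to 0.92 in strain 38 (median 0.02), and the others from -0.86 to 0.67 (median -0.52). The 3 highest of the other strains were among the 4 whose arrays stood apart, and the difference of 0.57 ± 0.15 (adjusted p 0.0437) was 0.74 without them (adjusted p 5.86e-05). With all arrays the call was lost in 22 of the 31 fits without 1 strain and in the fit without the strains nearest the boundary, 38 and 6. Arntl, the activator of the clock, differed by -0.19 ± 0.13 and was not called (adjusted p 0.48). The time at which the livers were taken is not given in the sources used here.

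The chaperones Hsp90b1, Pdia4 and Canx of the endoplasmic reticulum were lower in the low strains. Hsp90b1, the reticulum's Hsp90 chaperone, ranged from -0.73 in strain 36 to -0.13 in strain 5 (median -0.33) in the low strains and from -0.62 to 0.17 (median -0.04) in the others, a difference of -0.32 ± 0.07 (adjusted p 0.0157). The disulfide isomerase Pdia4 was lower by 0.40 ± 0.10 and the lectin chaperone Canx by 0.31 ± 0.08. Sel1l, the adaptor of the ligase that clears misfolded proteins, was higher by 0.50 ± 0.11 (adjusted p 0.0095). Thus 3 of 29 probes for the unfolded protein response were lower (10.3% against 0.804% of all probes) and 1 higher, and the list's median difference was -0.08. Without the 4 arrays 8 were lower (27.6%), against a background of 7.7%, and 1 was higher. Of the 5 added, Hspa5, the master chaperone of the compartment, differed by -0.39, the isomerases Pdia3 by -0.41 and P4hb by -0.53, Edem1 by -0.55 and Chac1 by -0.19. A second probe of Hspa5 differed by -0.08 with all arrays and was not called.

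Of 30 probes for haem and iron handling, limma called 4 higher (13.3% against 1.47% of all probes) and none lower. The exact rank-sum test called 3 of the list, against 846 of all 21764 probes. At an unadjusted p under 0.05, 10 were higher and 3 lower, against 1893 and 1679 of all 21764 probes. Without the 4 arrays, 6 were higher (20% against 7.88%) and 2 lower (6.67% against 7.7%). The list's median difference was 0.08 with all arrays and -0.03 in that fit. Hmox1, which opens the haem ring, ranged from 0.04 in strain 20 to 0.52 in strain 22 (median 0.12) in the low strains and from -0.47 to 0.54 (median -0.19) in the others. Only 2 of the 21 other strains reached the lowest low strain, and the difference was 0.34 ± 0.09 (adjusted p 0.0363). Alas1, the first enzyme of haem synthesis, was higher by 0.35 ± 0.10 and the biliverdin reductase Blvrb by 0.26 ± 0.07. Haptoglobin, Hp, which binds free haemoglobin, was higher by 0.72 ± 0.20 (adjusted p 0.0459), from 0.59 to 3.09 in the low strains and from 0.24 to 1.71 in the others. The Hp call was lost with clipped values (adjusted p 0.39) and in 17 fits without 1 strain. Hba-a1, an alpha-globin of red cells, was also higher, by 0.71 ± 0.19 (adjusted p 0.0383, lost in 10 fits without 1 strain). It was the one call among 8 erythroid probes (12.5% against 1.47% of all probes called higher).

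The antioxidant and the acute phase list each had 2 probes of 33 higher (6.06% against 1.47% of all probes) and 1 lower (3.03% against 0.804%). Gpx4, which reduces lipid peroxides, was higher by 0.45 ± 0.11 (adjusted p 0.024). Catalase, Cat, had 1 probe lower by 0.62 ± 0.14 (adjusted p 0.0108), and its second probe differed by 0.29 ± 0.08 in the other direction without a call (adjusted p 0.0607). Hmox1 was the list's second higher call. Among the acute phase probes, Hp and the lipopolysaccharide receptor Cd14 (0.34 ± 0.08) were higher and the metalloreductase Steap4 was lower by 0.44 ± 0.11. The fibrinogen chain Fgg, with medians of -0.07 and 0.53, was not called (adjusted p 0.26) and was lower by 0.75 without the 4 arrays (adjusted p 0.000453). In that fit 2 acute phase probes were higher (6.06% against 7.88% of all probes) and 5 lower (15.2% against 7.7%). Differences were below 0 at 19 of the 33, against 11134 of all 21764 probes. The antioxidant list then had 3 higher (9.09%) and 1 lower (3.03%).

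Probes for cytosolic ribosomal proteins mostly had positive differences. Of their 77 probes 7 were higher (9.09% against 1.47% of all probes) and none lower. At an unadjusted p under 0.05, 34 were higher and none lower, against 1893 and 1679 of all 21764 probes. The exact rank-sum test called 8, against 846 of all probes. The median difference was 0.21, and 63 of the 77 were above 0, against 10864 of all 21764. The mean level of the list ranged from 0.02 to 0.53 (median 0.33) in the low strains and from -0.09 to 0.32 (median 0.13) in the others. With the 4 arrays left out, 25 were higher (32.5% against 7.88%) and none lower, with a median of 0.18.

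Rpl9, a protein of the large subunit, ranged from 0.33 in strain 8 to 1.50 in strain 5 (median 1.02) in the low strains and from -0.33 to 1.36 (median 0.46) in the others, a difference of 0.58 ± 0.14 (adjusted p 0.0182). Rpl11 and Rpsa were higher by 0.44 ± 0.11 and 0.30 ± 0.08. The remaining calls, Rpl38 (0.96 ± 0.18), Rpl26 (0.72 ± 0.17), Rps15 (0.68 ± 0.14) and Rps19 (0.57 ± 0.16), were at every 8th probes, of which the list holds 17. Over the other 60 probes 3 were higher, against 280 of all 19232 probes outside every 8th probes, and the median was 0.19. Without the 4 arrays 14 of the 60 were higher, against 1309 of the 19232, with a median of 0.16. Ribosomal protein genes have many processed copies, and whether these probes also measure copies was not tested.

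The lists of oxidative phosphorylation and proteasome subunits had 3 calls each, all higher (3.95% and 7.5%, against 1.47% of all probes). Atp5j, a subunit of ATP synthase, was higher by 0.64 ± 0.17, the cytochrome oxidase subunit Cox4i1 by 0.42 ± 0.10 and the complex I subunit Ndufb2 by 0.39 ± 0.10, out of 76 probes for oxidative phosphorylation with a median of 0.05. The proteasome subunits Psmd4, Psmb6 and Psmd7 were higher by 0.39 ± 0.09, 0.39 ± 0.10 and 0.35 ± 0.09, out of 40 probes with a median of 0.09. Strain 8 was the lowest low strain at 5 of these 6 genes, Psmd4 being the exception. When the 4 arrays that stood apart were left out, 9 probes for oxidative phosphorylation were higher (11.8%, against 7.88% of all probes) and 3 lower, and 5 proteasome probes were higher (12.5%).

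Hrg, the histidine-rich glycoprotein of plasma, ranged from 0.23 in strain 8 to 1.38 in strain 33 (median 0.94) in the low strains and from -0.57 to 0.60 (median 0.03) in the others. The next lowest low strain lay above all 21 others. The difference was 0.79 ± 0.11 (adjusted p 0.000177). F13b, a chain of clotting factor XIII, was lower by 0.31 ± 0.08, which left 1 call in each direction among 48 probes for complement and coagulation. Each is 2.08% of the list, against 1.47% of all probes called higher and 0.804% called lower. Without the 4 arrays 5 of this list were higher (10.4% against 7.88%) and 6 lower (12.5% against 7.7%). Apoa4, an apolipoprotein of triglyceride-rich particles, was higher by 0.44 ± 0.12 (adjusted p 0.0462, lost in 21 fits without 1 strain). It was the one call among 32 probes for apolipoproteins and plasma carriers (3.12% against 1.47% of all probes called higher). The median difference of the list's probes was 0.14. Without the 4 arrays 7 of these were higher (21.9% against 7.88%), Apoa4, Apoc2, Apoc4, Apom, Mttp, Lcat and Afp, and none lower.

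Ugt2b1, a glucuronosyltransferase, was lower by 0.63 ± 0.14 (adjusted p 0.011), from -1.83 in strain 38 to 0.00 in strain 36 (median -0.33) in the low strains against -0.36 to 0.73 (median 0.08) in the others. It was the one call among 38 probes for transferases (2.63% against 0.804% of all probes called lower). The cytochromes Cyp2u1 (0.44 ± 0.12) and Cyp2d9 (0.35 ± 0.09) were higher among 37 probes of P450 families 1 to 3. Nr1h3, the oxysterol receptor LXR-alpha, and Cyp8b1, the enzyme that sets the share of cholic acid, were higher by 0.53 ± 0.13 and 0.38 ± 0.11 among 30 probes for bile acids. The growth hormone target Socs2, at an every 8th probe, was higher by 0.36 ± 0.09, and with Cyp2d9 made 2 calls among 33 probes for growth hormone dependent and sex-biased genes. Both calls were lost without strain 38 (adjusted p 0.0531 for Socs2 and 0.0707 for Cyp2d9). The cochaperone Chordc1 (0.42 ± 0.11) and the microtubule regulator Stmn1 (0.26 ± 0.07) were the single calls, both higher, among 25 heat shock and 31 cell cycle probes. The shares called higher were 5.41% of the P450 list, 6.67% of the bile acid list and 6.06% of the growth hormone list. For heat shock and cell cycle probes they were 4% and 3.23%, against 1.47% of all probes. Without the 4 arrays the shares called higher were 10.8%, 6.67%, 6.06%, 20% and 3.23% of these lists in that order, against 7.88%. Those called lower were 0%, 3.33%, 9.09%, 8% and 3.23%, against 7.7%.

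Terb2, a protein of meiotic telomeres, had a large positive difference as well. Its low strains ranged from -0.66 in strain 8 to 3.09 in strain 36 with a median of 1.31, and the others from -1.03 to 0.48 with a median of -0.75. The low strains were thus widely spread (SD 1.31 against 0.39), and the difference was 1.96 ± 0.29 (adjusted p 0.000254). Cldn3, a tight junction protein, ranged from 0.98 in strain 36 to 3.09 in strain 20 (median 1.99) against -0.18 to 1.34 (median 0.63), a difference of 1.29 ± 0.19 (adjusted p 0.000254). Crct1, known from cornified epithelium, was higher by 1.27 ± 0.19 and the membrane fusion protein Stx6 by 0.94 ± 0.14, with an adjusted p of 0.000355 for both. At Cldn3, Crct1 and Stx6, as at Mt1, Mt3 and Cyp4a14, strain 36 was the lowest of the low strains. The carboxylesterase Ces1g was higher by 0.96 ± 0.24 and the leukocyte membrane gene Ms4a6c by 1.04 ± 0.28, the latter call being lost in 22 fits without 1 strain.

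Among the probes lower in the low strains, Cd164, a sialomucin, had little overlap. Its low strains ranged from -1.02 to -0.24 (median -0.68) and the others from -0.97 in strain 42 to 0.69 (median 0.06), and 2 of the 21 others lay at or below the highest low strain. The difference was -0.71 ± 0.12 (adjusted p 0.0014). The aldehyde oxidase Aox3 was lower by 0.76 ± 0.20 and Fgf15, the gut hormone that restrains bile acid synthesis, by 0.80 ± 0.22, both with an adjusted p between 0.039 and 0.045. Serp1, a protein that steadies the translocon of the endoplasmic reticulum under stress, was lower by 0.71 ± 0.18 (adjusted p 0.0278).

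Calls with a smaller margin were those of Pdgfd, a growth factor (-0.99 ± 0.27, adjusted p 0.045), Krtap8-1, a hair keratin-associated protein (-0.85 ± 0.23, adjusted p 0.0459), and Zfp438, a zinc finger protein (-0.72 ± 0.20, adjusted p 0.0472). Strain 15, at 1.59, was far above the other low strains at Pdgfd, which lay between -2.44 and -1.18. The calls of Krtap8-1 and Zfp438 were not made by the exact rank-sum test (adjusted p 0.19 and 0.30). Leaving out 1 strain ended the calls of Pdgfd in 23, Zfp438 in 22, Krtap8-1 in 18, Fgf15 in 16, Aox3 in 11 and Serp1 in 6 of the 31 fits.

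**Figure D3:**
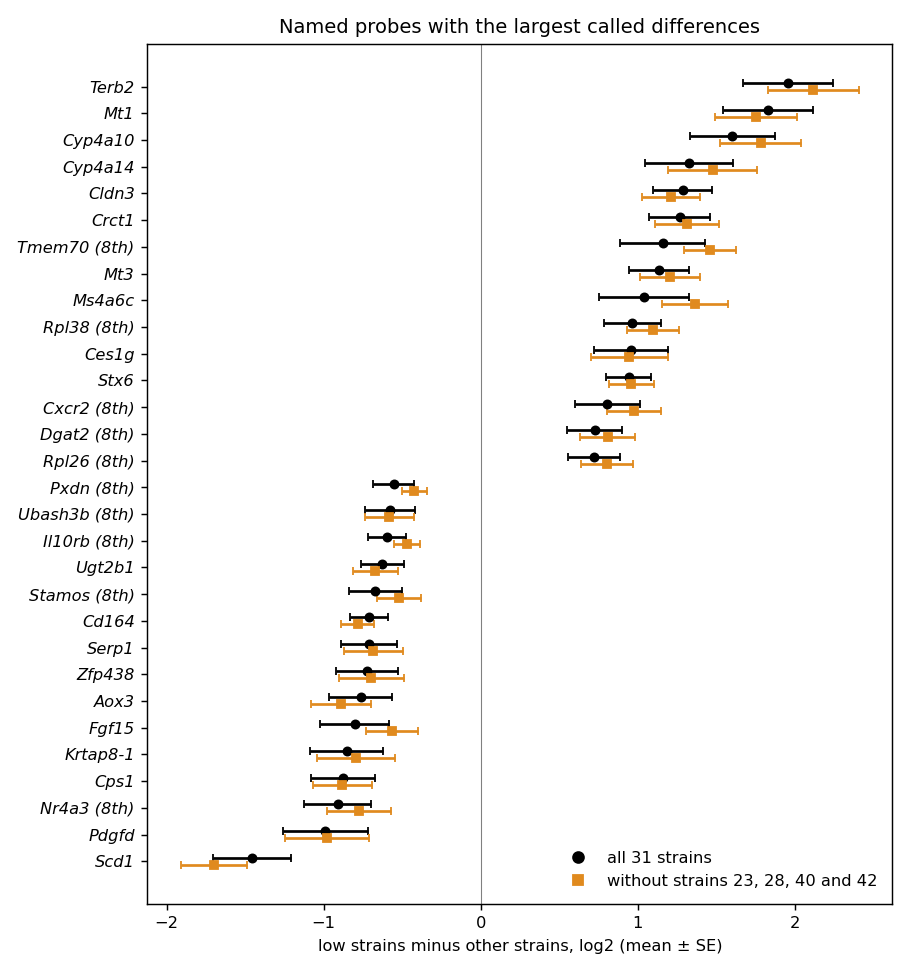
Differences of low minus other strains (log2, horizontal axis, ± SE) for the probes of 15 named genes with the largest positive and 15 with the largest negative called differences, 5 of each being every 8th probes and probe 22477, which has no gene, not shown, with all 31 strains (black circles) and without strains 23, 28, 40 and 42 (orange squares); 8th marks every 8th probes. The differences run from -1.46 at Scd1 to 1.96 at Terb2, and no sign turns without the 4 arrays.

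The every 8th probes with the largest called differences are given apart. Higher were Tmem70, an assembly factor of ATP synthase (1.16 ± 0.27), Rpl38, the chemokine receptor Cxcr2 (0.81 ± 0.21), Dgat2 and Rpl26. Lower were the nuclear receptor Nr4a3 (-0.91 ± 0.21), Stamos (-0.67 ± 0.17), the interleukin receptor chain Il10rb (-0.60 ± 0.12), the phosphatase Ubash3b (-0.58 ± 0.16) and peroxidasin, Pxdn (-0.55 ± 0.13). When each array's median of the probes with the same remainder was subtracted, 9 of these 10 stayed called and Ubash3b did not (adjusted p 0.0895).

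The genes whose values followed the sorting probe most closely across the 31 strains were Eef1akmt1, a lysine methyltransferase (Pearson r 0.83), Rab3gap2, a regulator of Rab proteins (0.76), the lysoplasmalogenase Tmem86b (0.76), the glycogen-binding protein Stbd1 (0.75) and the protocadherin Pcdhb22 (0.74). Those that ran most opposite were the homeobox gene Hoxa2 (-0.79), the cell death promoter Bad (-0.77), the phosphatase subunit Ppp2r5d (-0.72), the nucleotide kinase Nme2 (-0.72) and the cochaperone Bag1 (-0.72). These r were computed from the values that formed the sets, so they and the differences of these genes between the sets are a description with no test.

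Eef1akmt1 ranged from -0.97 to -0.53 (median -0.85) in the low strains and from -0.65 to 0.11 (median -0.45) in the others, a difference of -0.44, and 2 of the 21 others lay at or below the highest low strain. Bad ranged from -0.26 to 0.29 (median 0.09) in the low strains and from -0.77 to -0.04 (median -0.46) in the others, a difference of 0.50. Bag1 had medians of 0.51 and -0.10 and a difference of 0.64. At Bad 3 and at Bag1 2 of the 21 other strains reached the lowest low strain.

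The low strains were not alike among themselves. Of 57 named genes' probes called higher, strain 8 was the lowest of the low strains at 28, strain 36 at 8, strain 39 at 7 and strain 22 at 6. All 10 low strains lay above the median of the others at 36 of these 57 probes, and below it at 18 of 29 named probes called lower. Most of these probes were named for the size of their difference or for their r with the sorting probe. The counts are therefore a description of the chosen probes, with no test. In the other set, strain 42, whose array stood apart, was the highest at 17 of the 57 and the lowest at 9 of the 29. The array of strain 8 was not among the 4 that stood apart, but its median r with the other arrays was 0.67. Over the low strains the median of this r was 0.74, and only strain 38, at 0.57, was below strain 8.

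Counts of calls moved with single strains. The number of called probes was 241 without strain 15, 291 without strain 33, 299 without strain 22, 307 without strain 5, 313 without strain 20 and 816 without strain 42. Of the 87 named probes called, 42 stayed called in every fit without 1 strain and all kept their sign. The 87 include genes chosen by their r with the sorting probe, for which staying called is no test. Calls were lost without strain 38 and strain 6, the pair nearest the boundary, at 31 of the 87. These were Hmox1, Alas1, Hp, Gpx4, Hba-a1, Pdia4, Tdo2, Steap4, Acaca, Dgat2, Dbp, Nr1h3, Cyp2u1, Cyp2d9, Socs2, Apoa4, F13b, Rps19, Atp5j, Chordc1, Stmn1, Lyz2, Cxcr2, Ms4a6c, Aox3, Serp1, Fgf15, Pdgfd, Zfp438, Stamos and Ubash3b.

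**Figure D4:**
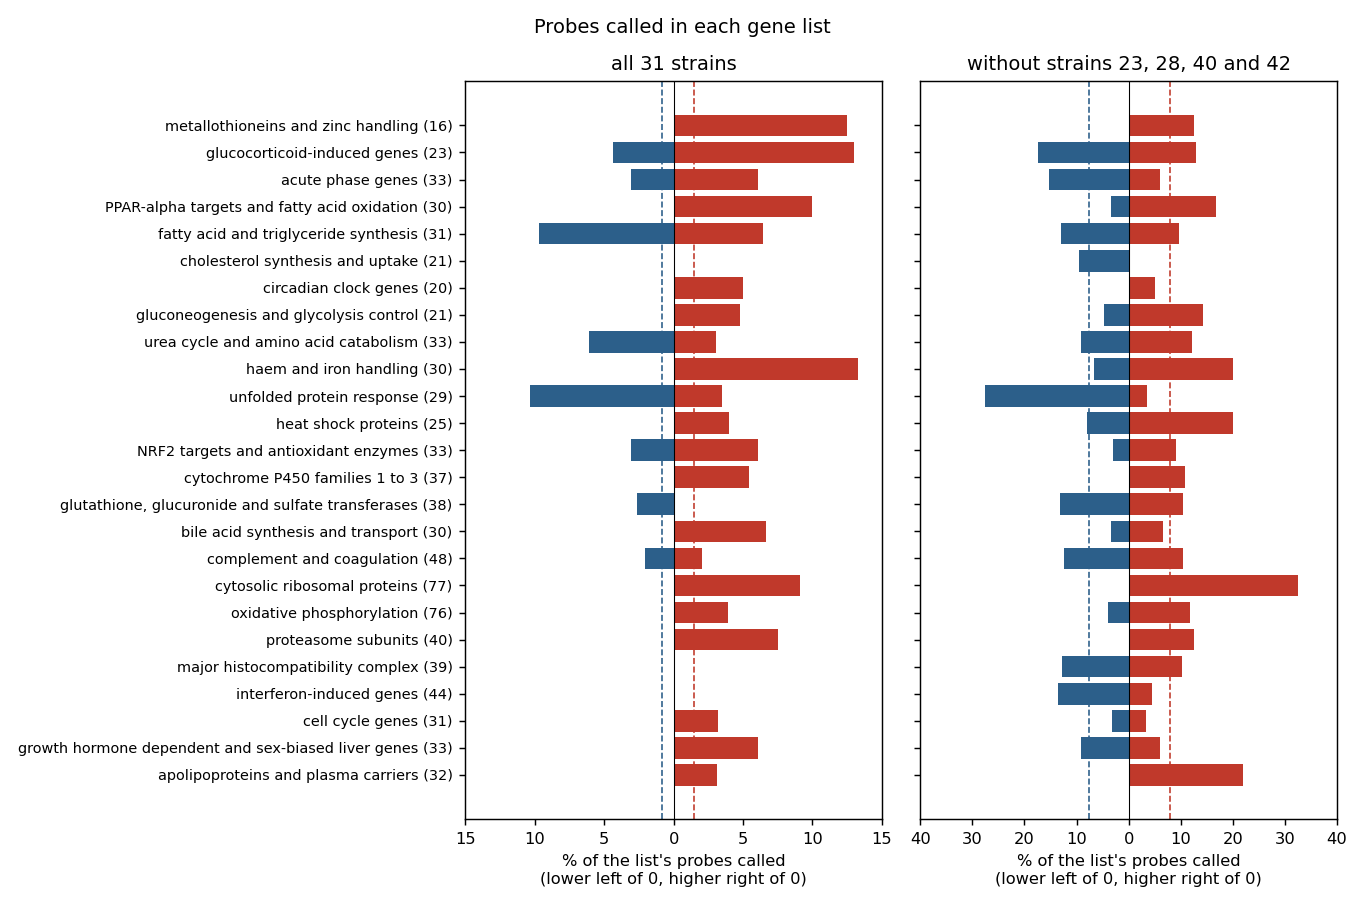
Share of each gene list's probes (number in parentheses) called higher (red, right of 0) or lower (blue, left of 0) in the low strains, in percent, with all 31 strains (left panel) and without strains 23, 28, 40 and 42 (right panel, another scale); dashed lines are the shares over all probes, 1.47% and 0.804% at left and 7.88% and 7.7% at right. Ribosomal proteins have 9.09% and 32.5% called higher and none lower, every 8th probes included.

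Markers of cell types were set beside these differences. Of 17 hepatocyte probes, Cps1 was the one called (5.88% against 0.804% of all probes called lower). Single calls, all higher, were Lyz2 of 21 macrophage probes (0.41 ± 0.10), Col3a1 of 20 stellate cell and fibroblast probes (0.71 ± 0.14), Cd5 of 20 lymphocyte probes (0.59 ± 0.11) and Cxcr2 of 12 neutrophil probes. These single calls are 4.76%, 5%, 5% and 8.33% of their lists in that order, against 1.47% of all probes. A second Lyz2 probe differed by -0.08 and was not called. The mean level of the macrophage list ranged from -0.13 to 0.26 (median 0.07) in the low strains and from -0.33 to 0.17 (median 0.08) in the others. That of the stellate cell and fibroblast list ranged from 0.03 to 0.22 (median 0.14) and from -0.13 to 0.21 (median 0.10), that of the lymphocyte list from -0.23 to 0.08 (median -0.01) and from -0.32 to 0.09 (median -0.03), and that of the erythroid list from 0.01 to 0.33 (median 0.24) and from -0.16 to 0.37 (median 0.05). In each of these lists the sets overlapped, and the part of cell types in the results was not tested. Without the 4 arrays, macrophage probes had 2 higher and 2 lower (9.52% each), and stellate cell and fibroblast probes 1 each way (5% each). Neutrophil and erythroid probes also had 1 each way (8.33% each and 12.5% each). Lymphocyte probes had 1 higher (5%) and 2 lower (10%), and hepatocyte probes 1 lower (5.88%). The shares over all probes were 7.88% higher and 7.7% lower in that fit. Ratios to a common reference do not show whether a defining marker is absent.

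No probe was called by limma for adipocytes (12 probes), exocrine pancreas (26), endothelial cells (16), cholangiocytes (7), Y-linked genes (10), the major histocompatibility complex (39) or interferon-induced genes (44). At an unadjusted p under 0.05 these lists held 3, 3, 3, 1, 1, 15 and 3 probes, against 3572 of all 21764 probes. The exact rank-sum test, which called 846 of all probes, called 1 adipocyte probe, 1 of the histocompatibility complex and none in the other 5 lists. Without the arrays of strains 23, 28, 40 and 42, 4 histocompatibility probes were higher (10.3% against 7.88% of all probes) and 5 lower (12.8% against 7.7%). In the same fit 2 interferon-induced probes were higher (4.55%), both of them every 8th probes, and 6 were lower (13.6%). Of the cell types without a call, endothelial probes then had 1 higher and 3 lower (18.8%), adipocyte probes 2 lower (16.7%), exocrine pancreas probes 1 higher and 3 lower (11.5%) and cholangiocyte probes none of either. Differences were below 0 at 13 of the 16 endothelial and 19 of the 26 pancreas probes in that fit, against 11134 of all 21764. The part of these cells in the results was not tested.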

How the data were processed

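Whole liver RNA of 31 strains was measured with 1 two-colour array per strain. The values the authors deposited are normalized log ratios, which were taken as log2 of strain (Alexa Fluor 647) over C57BL/6J (Alexa Fluor 555). The submitters' processing notes name limma and R 2.0.0. Per the labels' protocols, 20 ug of RNA was labelled for each and a spike-in mix is listed with the reference only, and dyes were not exchanged. Not given in the sources used here are the background correction, the normalization steps, the log base and the direction. All arrays share 1 distribution from -3.84 to 3.65, so extreme values sit at its ends. Without spot intensities, signal over background is unknown, and precision is limited by how many arrays there are.

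Of 23040 probes, 1275 were empty and 21764 were tested, the sorting probe excluded. In the platform annotation 16642 of the 21765 probes with values had 1 gene, 134 had several and 4989 had none. RefSeq (GRCm38.p6) updated 15964 names and gave the neighbourhood of genes. Probes with several genes were not named.

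Low minus other strains was fitted with limma 3.58.1 in R 4.3.3 (lmFit, then eBayes; a two-sided test with the adjusted p of Benjamini and Hochberg under 0.05 over all tested probes), and the scripts were tested on simulated data. Lists are described by counts and medians, every probe of a gene counted, with no test. The rule for named genes took, among called probes with 1 gene and a symbol that is no clone name, the 10 largest differences in each direction outside every 8th probes and 5 in each direction among them, called probes without overlap, up to 4 members of each list by size, all metallothioneins, the other probes of these genes, and the 5 genes most and the 5 least like the sorting probe. Strains and gene lists were chosen with earlier results of these data known. Other named genes were chosen after their values were seen.

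Alternatives were centring each array, correction for the remainder of the probe number divided by 8, leaving out every 8th probes, leaving out strains 23, 28, 40 and 42 (also with that correction), strain 38, or the pair of strains nearest the boundary, array weights, trended robust variances, an exact rank-sum test, a required difference beyond 0.2, and clipping to the 1st to 99th percentile. Leaving out each strain in turn was added after the data were seen.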

Additional observations from a re-analysis of the deposited data

Results flagged for a closer look

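At 7 of the 88 named probes examined, 1 low strain lay far from the other 9 by the gap between them relative to the set's whole range (Dixon's criterion at 95%), and chance alone flags about 1 in 20 sets. Strain 8 was the one concerned at 4 of them. At Cyp4a10 it stood at 0.21 while the other 9 low strains lay between 1.11 and 1.84, and at Rpl11 it stood at 0.0595 against 0.53 to 1.05. At Mt4 strain 8 was at -2.59 and the others between -0.43 and 0.01. At the every 8th probe of Tmem70, strain 8 was at -1.42 and the others between -0.08 and 0.51.

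Strain 38 was at -1.83 for Ugt2b1, below the other 9 low strains, which ran from -0.97 to 0.00. Strain 15 was at 1.59 for Pdgfd, above the others, which ran from -2.44 to -1.18. Strain 33 was at -0.50 for the every 8th probe of Il10rb, above the others, which ran from -1.20 to -1.004.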

How the results depend on the processing

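The 496 calls became 3390 without strains 23, 28, 40 and 42, 3316 with the place correction as well, 2728 with array weights, 846 with the exact rank-sum test, 265 without the pair of strains nearest the boundary (38 and 6) and 14 when a difference beyond 0.2 was required. Centring, the place correction alone, leaving out every 8th probes or strain 38, trended robust variances and clipping kept the count within 1.5 times, between 346 and 663. With each strain left out in turn, added after the data were seen, it ran from 241 to 816. No difference of a named probe changed sign. Of the 87 named probes called, 31 lost the call without the boundary pair, 23 without strain 38, 8 with clipping (Mt1, Hp, Acaca, Fgf15, Rps19, Psmb6, Cyp2u1 and Cyp8b1), 7 with trended robust variances and 1 (Ubash3b) with the place correction, and 77 did not pass a difference beyond 0.2. Those that passed it were Mt1, Mt3, Terb2, Cyp4a10, Cldn3, Crct1, Stx6, Hrg, Scd1 and probe 22477. With 1 array per strain and pooled mice, the error of a single strain's value is unknown. Values at the ends of the common distribution have an uncertain size, and no depth or signal over background was available. No paired analysis was possible because the strains form 1 group.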

Other observations

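Genes called only when strains 23, 28, 40 and 42 were left out were chosen here after their values were seen. Higher in the low strains in that comparison were the triglyceride transfer protein Mttp (0.63) and, at every 8th probes, the arginase Arg1 (0.79), the methionine adenosyltransferase Mat1a (0.83) and the mitochondrial chaperone Hspa9 (0.90). Lower were the carbonic anhydrase Car3 (-1.20), the urinary protein Mup2 at an every 8th probe (-0.87), the complement component C6 (-0.81) and the Fc receptor Fcgr2b of liver endothelium (-0.87). Interferon-induced genes lower in that comparison included Rsad2 (-0.48), Ifi27 (-0.55), Mx2 (-0.36) and Parp14 (-0.35), while Dhx58 (0.58) and Trim21 (0.52), both at every 8th probes, were higher.

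By the RefSeq table, called probes were spread over all autosomes and chromosome X. The share called ran from 1.62% of 555 probes on X to 3.44% of 610 on chromosome 13, and no probe of 16 on Y was called.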
